A study of Mus musculus with 36 samples.

Results

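The Wnt ligands *Wnt2*, *Wnt5a* and *Wnt11*, the Frizzled receptors *Fzd2* and *Fzd7*, the secreted antagonists *Sfrp1*, *Sfrp2*, *Dkk2* and *Dkk3*, and *Axin2* were followed in mouse hearts by microarray. These 10 genes were taken by name from the array annotation, which holds 20701 gene IDs, and they are read by 22 of its 45101 probe sets. All 36 arrays carried RNA of hearts of outbred OF1 mice, with 3 arrays at each of 12 stages. Hearts were collected daily from E10.5 to E19.5 and from young adult (10 weeks) and old adult mice. The labels give 14 months for the old adults, and the methods of the study a younger age. The labels give no mutation, transgene or treatment. At E10.5 and E11.5 all 3 arrays are of mixed-sex hearts, and from E12.5 each stage has 1 female, 1 male and 1 mixed-sex array, listed below as female, male and mixed.

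Wnt proteins are secreted, lipid-modified ligands that bind Frizzled receptors on the cell surface. In the canonical branch, binding stops the breakdown of beta-catenin, which then acts with TCF/LEF factors on target genes, whereas noncanonical branches act on cell polarity, movement and calcium through co-receptors such as ROR2. Secreted Frizzled-related proteins (SFRPs) bind Wnt ligands, and Dickkopf (DKK) proteins act on LRP co-receptors, although DKK3 does not share that activity. In the heart, Wnt signals are known from the outflow tract, the endocardial cushions and the epicardium.

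Values are log2 intensities after robust multi-array average (RMA), so that a difference of 1 is a 2-fold change. They were compared between stages within a probe set, never between probe sets. A gene is read by its probe set with the highest mean over all arrays unless another is named. A gene was called a differentially expressed gene (DEG) by the limits of the study. These ask for a limma adjusted p under 1e-05, for more than 2 log2 units of change in either direction, and for some stage whose mean exceeds 5. Of the 10 genes, 8 reached a mean of 5 at some stage, among 11317 of 20701 genes in all. *Wnt2* and *Dkk2* stayed under 5 throughout, so their changes are small differences between dim signals. Where one side of a comparison lies under 5, its value may be mostly background, so the log2 difference is given as measured and without a fold.

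Cardiomyocyte markers were bright at every stage, with a list mean of 10.8 at E10.5. Liver, thymus, skeletal muscle and lung markers were under 5 on average at every stage, although the extraction note in the labels names liver. The lung marker *Sftpb* exceeded 5 at E17.5, E19.5 and in young adults. The adipocyte list mean rose from 3.14 at E19.5 to 5.31 in young adults (4.39 to 6.25 across arrays) and was 4.62 in old adults. The part of other tissue in the member values was not tested. Array titles change form from the E16.5 female array onward. Whether this marks a batch is not stated, and it cannot be told apart from late stage except within E16.5. There only the female array has the later form, so a title term rests on it against the male and mixed arrays. Within E16.5 the term cannot be told apart from sex. Comparisons of early with late stages carry its error, and calls lost with the term are given as descriptions. Hybridization controls rose from a mean of 9.90 at E10.5 to 12.2 in young adults, and their part in the results was not tested. Centring each array on its expressed probe sets shifted each array by its own amount. The median shift of the E10.5 arrays was 0.57 lower than that of the young adult arrays. In whole hearts, fewer cells of a type and less RNA per cell cannot be told apart.

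The members fell into a few time courses. *Wnt5a* was high in early hearts, and with its brightest probe set the mean fell at each stage after E11.5. A dimmer one, 1448818_at, had means of 4.22 at E17.5 and 4.65 in young adults. *Fzd2* declined late with its brightest probe set and earlier with its others. *Sfrp2* was near the floor at E10.5 and at its highest level 2 days later. With their brightest probe sets *Sfrp1*, *Fzd7*, *Dkk3* and *Axin2* had a shallower maximum of the stage means at E12.5 or E13.5. From E10.5 to E12.5 these probe sets differed by 0.88, 0.54, 0.09 and 0.17, in that order. The limma adjusted p were 0.25, 0.43, 0.97 and 0.74, so a rise by E12.5 was not shown for them. From E12.5 to E17.5 the differences were -2.75, -1.90, -1.35 and -0.92 (adjusted p = 2.29e-06, 1.30e-05, 0.00957 and 4.27e-05). Against young adult hearts, *Wnt5a*, *Sfrp2* and *Fzd2* were DEGs at 1 or more of the 11 other stages, which is 3 of 10 genes where 10.0% of all genes were. All of these calls were at embryonic stages and in the higher direction. *Sfrp2* lost its call with the array title form as a term (adjusted p = 9.95e-04 at E12.5) and without the male young adult array, each of which left *Wnt5a* and *Fzd2*, and *Fzd2* lost its call with centred arrays. The median log2 fold change of the 10 genes at E10.5 against young adult was 0.56, compared with -0.21 over all genes and 0.34 over genes that reached the limit of 5.

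**Figure D1:**
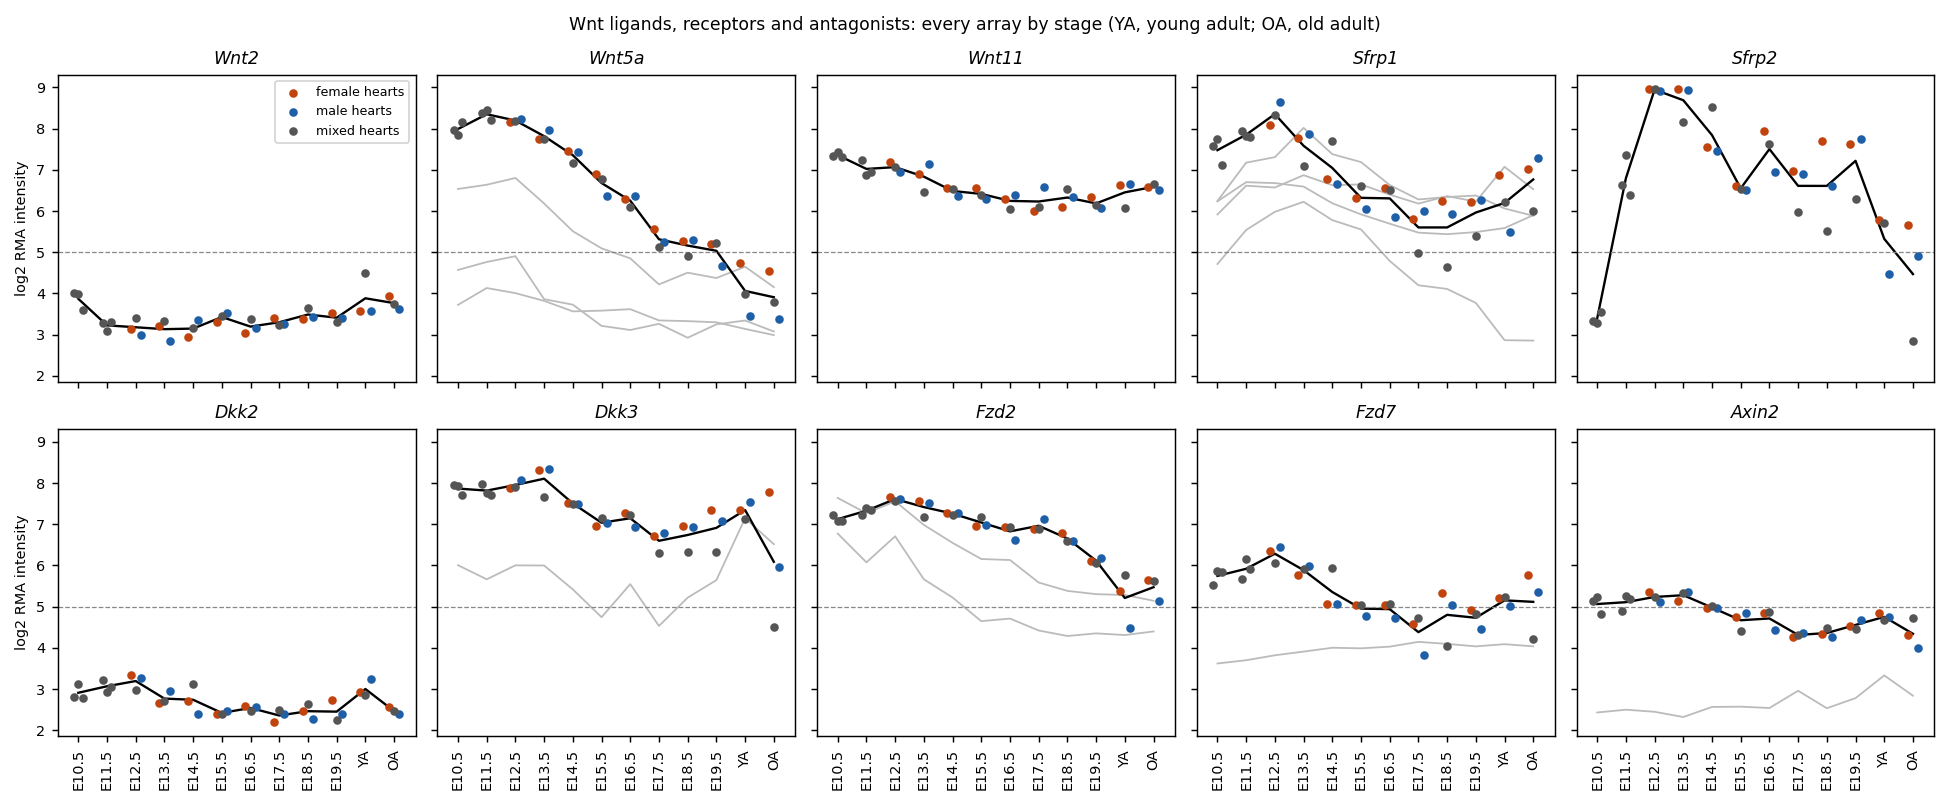
Log2 RMA intensity of each gene (y axis) against stage (x axis). Points are the 36 arrays by the brightest probe set, coloured by sex of the hearts, black lines are stage means, grey lines are stage means of the other probe sets, and the dashed line marks 5. *Sfrp2* lies between 3.30 and 3.55 at E10.5 and between 8.90 and 8.97 at E12.5, while *Wnt5a* descends from 8.35 at E11.5 to 3.91 in old adults.

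*Wnt5a* is the best known noncanonical ligand and is required for outflow tract septation. Its arrays read 7.97, 7.84 and 8.17 at E10.5, and 8.38, 8.46 and 8.21 at E11.5. The E19.5 arrays read 5.21 (female), 4.66 (male) and 5.23 (mixed). The young adult arrays read 4.75, 3.45 and 3.99 in the same order, so young adult overlapped E19.5 but no stage from E10.5 to E18.5.

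*Wnt5a* was 3.93 higher at E10.5 than in young adults on the log2 scale (SE 0.24, limma adjusted p = 7.07e-15). The difference was 4.29 at E11.5 (adjusted p = 1.00e-15) and 2.19 at E16.5 (adjusted p = 6.16e-09), and it passed the limits at the 7 stages from E10.5 to E16.5. At E17.5, E18.5 and E19.5 it was 1.25, 1.10 and 0.97, with adjusted p of 8.76e-05, 4.62e-04 and 0.00214. From E10.5 to E19.5 *Wnt5a* fell by 2.96 (adjusted p = 2.78e-11). No single daily step passed an adjusted p of 0.05; its largest, from E16.5 to E17.5, was -0.94 (adjusted p = 0.27).

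Of the other 3 probe sets of *Wnt5a*, all dimmer, 1448818_at and 1437673_at fell from E10.5 to E19.5 (by 2.16 and 1.32, adjusted p = 5.90e-09 and 3.30e-07), and 1456976_at differed by 0.42 (adjusted p = 0.0766). The first of them, 1448818_at, was 1.89 higher at E10.5 than in young adults and 2.15 higher at E12.5, the latter past the limits. At E16.5 it was only 0.20 higher (adjusted p = 0.498), where the brightest probe set differed by 2.19. The stage at which *Wnt5a* met the adult level thus differed between probe sets.

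*Wnt11*, a noncanonical ligand of the outflow tract myocardium, moved little. Its single probe set read 7.33, 7.43 and 7.31 at E10.5, 6.34, 6.08 and 6.14 at E19.5, and 6.63, 6.65 and 6.08 in female, male and mixed young adult hearts. The E10.5 arrays lay above both later groups. The fall from E10.5 to E19.5 was 1.17 (SE 0.17, adjusted p = 1.90e-06), and E10.5 exceeded young adult by 0.90 (adjusted p = 4.15e-05), both short of the fold change limit.

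*Wnt2*, a ligand of the venous pole and of lung mesenchyme, had stage means from 3.13 ± 0.25 (E13.5, SD, n = 3) to 3.88 ± 0.54 (young adult). Its E10.5 mean of 3.87 was close to the adult one, and no neighbours in its order of stages were free of overlap.

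Of the receptors, *Fzd2* had the larger change. Its arrays read 7.22, 7.08 and 7.08 at E10.5, 7.65, 7.62 and 7.56 at E12.5, and 6.11, 6.19 and 6.05 at E19.5. Young adult hearts read 5.38 (female), 4.48 (male) and 5.77 (mixed). All embryonic arrays exceeded these 3.

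*Fzd2* was 2.40 higher at E12.5 than in young adults (5.28-fold, SE 0.19, adjusted p = 4.08e-12) and was called from E11.5 to E14.5. At E10.5 the difference of 1.91 (adjusted p = 4.59e-10) missed the fold change limit, while its other probe sets, 1418533_s_at and 1418532_at, passed it with 2.35 and 2.46. At E19.5 the brightest probe set still stood 0.91 above young adult (adjusted p = 3.98e-04), and the other 2 differed by 0.02 and 0.04 (adjusted p = 0.970 and 0.935). Accordingly, from E10.5 to E19.5 *Fzd2* fell by 1.01 on the brightest and by 2.33 and 2.42 on the others. From E12.5 to E15.5 alone 1418533_s_at fell by 1.40 and 1418532_at by 2.06, and the brightest by 0.57. Centring of the arrays took the brightest probe set below the fold change limit at every stage.

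*Fzd7*, a receptor for both branches, was highest at E12.5, with 6.34 (female), 6.45 (male) and 6.07 (mixed), and lowest at E17.5, with 4.58, 3.84 and 4.73. Young adult arrays lay between, at 5.22, 5.01 and 5.23, without overlap with either stage. The excess of E12.5 over young adult was 1.13 (SE 0.29, adjusted p = 0.00183), and the deficit of E17.5 was -0.77 (adjusted p = 0.0405). With the array title form as a term, the first of these had an adjusted p of 0.0804. The second probe set of *Fzd7* stayed between 3.62 and 4.15 in stage means and ran the other way, with r of -0.80 with the first over 12 stages.

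*Sfrp2*, a secreted antagonist of mesenchyme that can also assist collagen processing, had the largest measured log2 difference between stages of the 10 genes, with its lowest stage under 5. At E10.5 its only probe set read 3.34, 3.30 and 3.55, and at E11.5 it read 6.63, 7.36 and 6.39. At E12.5 the arrays read 8.96 (female), 8.90 (male) and 8.97 (mixed). The 3 days were fully apart, and E12.5 was the tightest stage of this gene, with an SD of 0.04.

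From E10.5 to E11.5 *Sfrp2* rose by 3.40 (SE 0.51, limma adjusted p = 2.68e-04). Among the 9 daily steps of the 10 genes it was the only one past an adjusted p of 0.05 with the brightest probe sets, and 4 passed when any probe set counted. The share of all genes past that limit was 2.67% for E10.5 to E11.5 and, in order, 0.126%, 1.26%, 0.0628%, 0.0483%, 0.00483%, 0.0193%, 0% and 1.72% for the following steps. The next step, from E11.5 to E12.5, was 2.15 (adjusted p = 0.132). Over both days together the rise was 5.55 (SE 0.51, adjusted p = 1.29e-08), a comparison chosen after the values were seen.

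After E13.5 (8.97 female, 8.94 male, 8.17 mixed) *Sfrp2* declined to a mean of 6.55 ± 0.05 at E15.5 (SD, n = 3). It then ranged from 6.95 to 7.93 at E16.5 and from 6.29 to 7.74 at E19.5. The mixed-sex array was the lowest of its stage at E17.5 (5.97), E18.5 (5.51) and E19.5 (6.29), and the SD at E18.5 was 1.10. Young adult hearts read 5.79, 4.47 and 5.72, below every array from E11.5 to E17.5 and above those of E10.5.

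Against young adult, *Sfrp2* was lower by 1.93 at E10.5 (adjusted p = 0.00185), higher by 3.62 at E12.5 (12.3-fold, adjusted p = 6.01e-07) and higher by 1.89 at E19.5 (adjusted p = 0.00511). It was called at E12.5 and E13.5. E10.5 against E19.5 gave -3.83 (adjusted p = 5.00e-07), opposite in sign to the 9 other member genes.

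Lists of cell type markers moved over the same days. The mean of 5 cushion mesenchyme markers rose from 6.64 to 6.86 across the E10.5 arrays to 7.37 to 7.60 at E12.5, and fell to 6.51 to 6.73 at E19.5, although its member *Postn* stayed at 11.8 there. The summed linear level of the cushion list, in contrast, was 1282 to 1614 at E10.5, 3353 to 3650 at E12.5, highest at 3916 to 4871 at E13.5 and still 3310 to 4104 at E19.5. The mean of 7 fibroblast markers rose from 6.97 to 7.18 at E10.5 to 9.04 to 9.07 at E12.5 and 9.71 to 10.0 at E19.5, with *Lum* and *Dpt* under 5 at E10.5. The summed linear level of the fibroblast list was 3079 to 3409 at E10.5 and 9154 to 9416 at E12.5. Within E17.5 and E18.5 the mixed array was also the lowest in the fibroblast list (9.18 and 9.60). The 6 epicardium markers averaged 6.53 at E10.5 and 6.43 at E12.5. The part of these cells in the *Sfrp2* values was not tested.

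**Figure D2:**
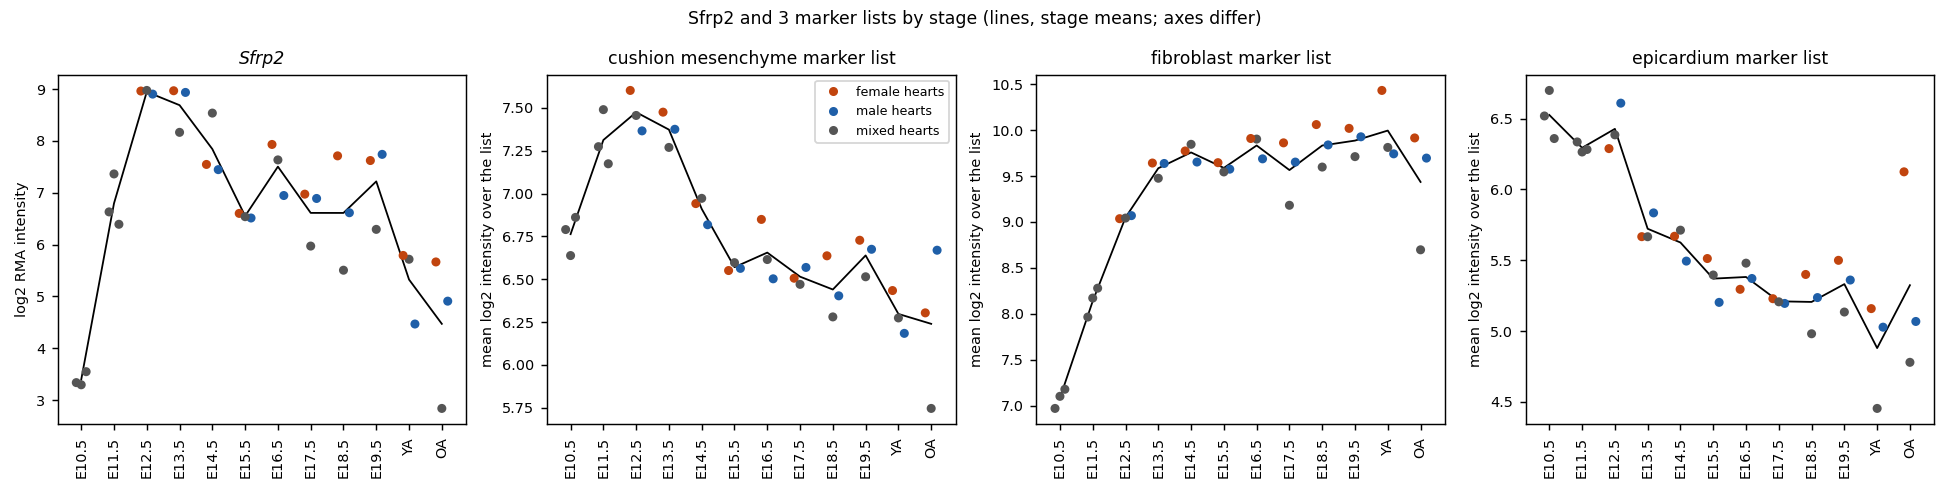
Log2 RMA intensity of *Sfrp2* and mean log2 intensity of 3 marker lists (y axes, each on its own scale) against stage (x axis). Points are arrays coloured by sex of the hearts and lines are stage means. *Sfrp2* and the mean log2 level of the cushion mesenchyme list are both highest at E12.5, the fibroblast list remains near 9.89 at E19.5, and the epicardium list falls to 5.33.

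*Sfrp1*, the relative of *Sfrp2*, has 5 probe sets that did not give one course. The brightest, 1448395_at, read 7.57, 7.75 and 7.11 at E10.5, 8.08, 8.63 and 8.34 at E12.5 and 6.21, 6.28 and 5.40 at E19.5. Young adult arrays read 6.89 (female), 5.49 (male) and 6.22 (mixed), apart from E10.5 and E12.5 but overlapping E19.5. At E12.5 it exceeded young adult by 2.16 (4.46-fold, SE 0.38), with an adjusted p of 1.73e-05 just outside the limit.

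For *Sfrp1*, probe set 1460187_at differed by 3.36 at E13.5 from a dim young adult mean (adjusted p = 8.26e-13) and was called at the 5 stages from E11.5 to E15.5. Its arrays read 6.12, 6.30 and 6.25 at E13.5 and 2.61, 2.85 and 3.14 in young adults. In contrast, 1438620_x_at was 1.16 lower at E10.5 than in young adults (adjusted p = 1.17e-05). Its suffix marks probes that can match other sequences. At E12.5, 4 of the 5 probe sets were higher than in young adults, by 1.09 to 3.11, and 1438620_x_at was lower by 0.50, each with an adjusted p under 0.05.

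*Dkk3*, a divergent Dickkopf protein, also depended on the probe set. With 1417312_at the E10.5 arrays read 7.95, 7.94 and 7.71, the E13.5 arrays 8.32, 8.34 and 7.66, and the young adult arrays 7.36 (female), 7.54 (male) and 7.14 (mixed). E10.5 exceeded young adult by 0.52 (adjusted p = 0.245). With 1448669_at E10.5 was 1.14 lower (adjusted p = 0.0167), and at E17.5 it was 2.61 lower (adjusted p = 4.68e-06), the only call in the lower direction among the 22 probe sets. The correlation of the 2 probe sets over the 12 stage means was 0.20, given as a description.

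*Dkk2*, an LRP-binding Dickkopf, had stage means between 2.36 and 3.20. At E19.5 it was 0.55 lower than in young adults (adjusted p = 0.00791), a difference of dim signals.

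*Axin2*, a scaffold of beta-catenin breakdown and a widely used readout of canonical signalling, covered a narrow range. It read 5.14 (female), 5.36 (male) and 5.34 (mixed) at E13.5, 4.26, 4.37 and 4.31 at E17.5, and 4.84, 4.75 and 4.67 in young adults. The E13.5 arrays lay above young adult by 0.53 (SE 0.16, adjusted p = 0.00625) and the E17.5 arrays below it by -0.44 (adjusted p = 0.0271). With centring, the median shift of the E13.5 arrays was 0.37 lower than that of the young adult arrays. At E12.5 the *Axin2* difference of 0.48 became 0.05 with centring (limma adjusted p = 0.795). It also missed an adjusted p of 0.05 with quantile renormalization and with the title term. Its dimmer probe set, under 5 at all stages, was lower at E13.5 than in young adults by 1.01.

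The promoters below are shown because *Sfrp2* had the largest measured difference, *Axin2* is the canonical readout, and *Wnt11* alone among the 6 members with a RefSeq promoter here holds the TCF/LEF core motif. The core CTTTGA was searched on both strands of the 250 bases before each annotated start (GRCm38.p6), and 13.8% of 32851 such windows hold it. The *Wnt11* match, in capitals, lies on the other strand and begins 50 bases before the start. Its second start has no match, nor have *Wnt2*, *Dkk2* and *Fzd7*. The windows are chr3:83766071-83766320 for *Sfrp2*, chr11:108920099-108920348 for *Axin2* and chr7:98834862-98835111 for *Wnt11*, all on the plus strand. A match is a description of the letters only, and no binding was measured.
Sfrp2: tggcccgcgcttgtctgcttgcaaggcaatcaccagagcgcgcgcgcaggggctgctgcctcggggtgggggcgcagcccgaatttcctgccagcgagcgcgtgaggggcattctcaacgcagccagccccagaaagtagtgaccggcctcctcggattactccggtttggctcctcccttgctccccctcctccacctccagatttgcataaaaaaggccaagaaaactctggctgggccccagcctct
Axin2: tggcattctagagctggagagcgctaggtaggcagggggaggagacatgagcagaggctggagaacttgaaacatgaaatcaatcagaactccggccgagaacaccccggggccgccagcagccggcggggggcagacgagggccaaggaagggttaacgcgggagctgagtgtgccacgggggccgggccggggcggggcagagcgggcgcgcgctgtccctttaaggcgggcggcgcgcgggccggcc
Wnt11: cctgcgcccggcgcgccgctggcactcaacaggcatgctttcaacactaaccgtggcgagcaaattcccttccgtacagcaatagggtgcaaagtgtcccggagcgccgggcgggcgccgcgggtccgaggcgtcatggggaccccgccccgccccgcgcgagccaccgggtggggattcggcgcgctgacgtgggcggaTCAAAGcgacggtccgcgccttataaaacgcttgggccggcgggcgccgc

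Set against the background, the share of members called higher than young adult was 1 of 10 on the first day (E10.5), then 2 on the next day. It was 3 both at E12.5 and E13.5, 2 at E14.5, 1 at E15.5 and E16.5, and 0 from E17.5 to E19.5. Over all genes it was 5.14%, 4.27%, 4.02%, 3.37%, 3.25%, 2.91%, 2.66%, 1.85%, 1.79% and 1.02% at the 10 embryonic stages in order. No member gene was called lower at any of them, where 2.64%, 2.33%, 2.20%, 2.12%, 1.97%, 1.97%, 1.55%, 1.49%, 1.25% and 0.787% of genes were. With 10 genes, nothing particular to them is read from these shares.

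With an adjusted p of 0.05 alone, 4 members were higher at E10.5 (*Wnt5a*, *Wnt11*, *Sfrp1*, *Fzd2*) and 1 lower (*Sfrp2*), where 28.5% and 38.6% of all genes were. *Wnt11* lost this call with quantile renormalization (0.38, adjusted p = 0.0506) and *Sfrp2* with the title term (adjusted p = 0.289). *Sfrp1* lost it with either of these and without the male young adult array. At E19.5, 3 were higher (*Wnt5a*, *Sfrp2*, *Fzd2*) and 1 lower (*Dkk2*), beside 17.0% and 14.7%. Between E10.5 and E19.5, 9 of 10 were higher at E10.5 and 1, *Sfrp2*, was lower, beside 23.6% and 26.2% of all genes. Of these calls *Dkk3* was lost in 34 of 42 alternative settings (adjusted p up to 0.292), *Wnt2* in 7 of 41 and *Dkk2* in 5 of 41, *Axin2* in 3 of 42, and *Sfrp1* and *Fzd7* with the title term. By the limits of the study that comparison called *Wnt5a* higher and *Sfrp2* lower, beside 1.52% and 1.00%. The median over the members was 0.98, and over all genes -0.16.

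Variation over the 10 embryonic stages was tested by the F test of the same model. At an adjusted p under 1e-05, 6 of 10 member genes varied (*Wnt5a*, *Wnt11*, *Sfrp1*, *Sfrp2*, *Fzd2*, *Axin2*), where 11.9% of all genes did. *Fzd7* was just outside with 1.20e-05. With the array title form as a term only *Wnt5a* and *Sfrp2* remained, and with centred arrays *Wnt5a*, *Sfrp1* and *Sfrp2*. Quantile renormalization left 4, without *Wnt11* and *Fzd2*, and the sex label as a block left 5, without *Axin2*.

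**Figure D3:**
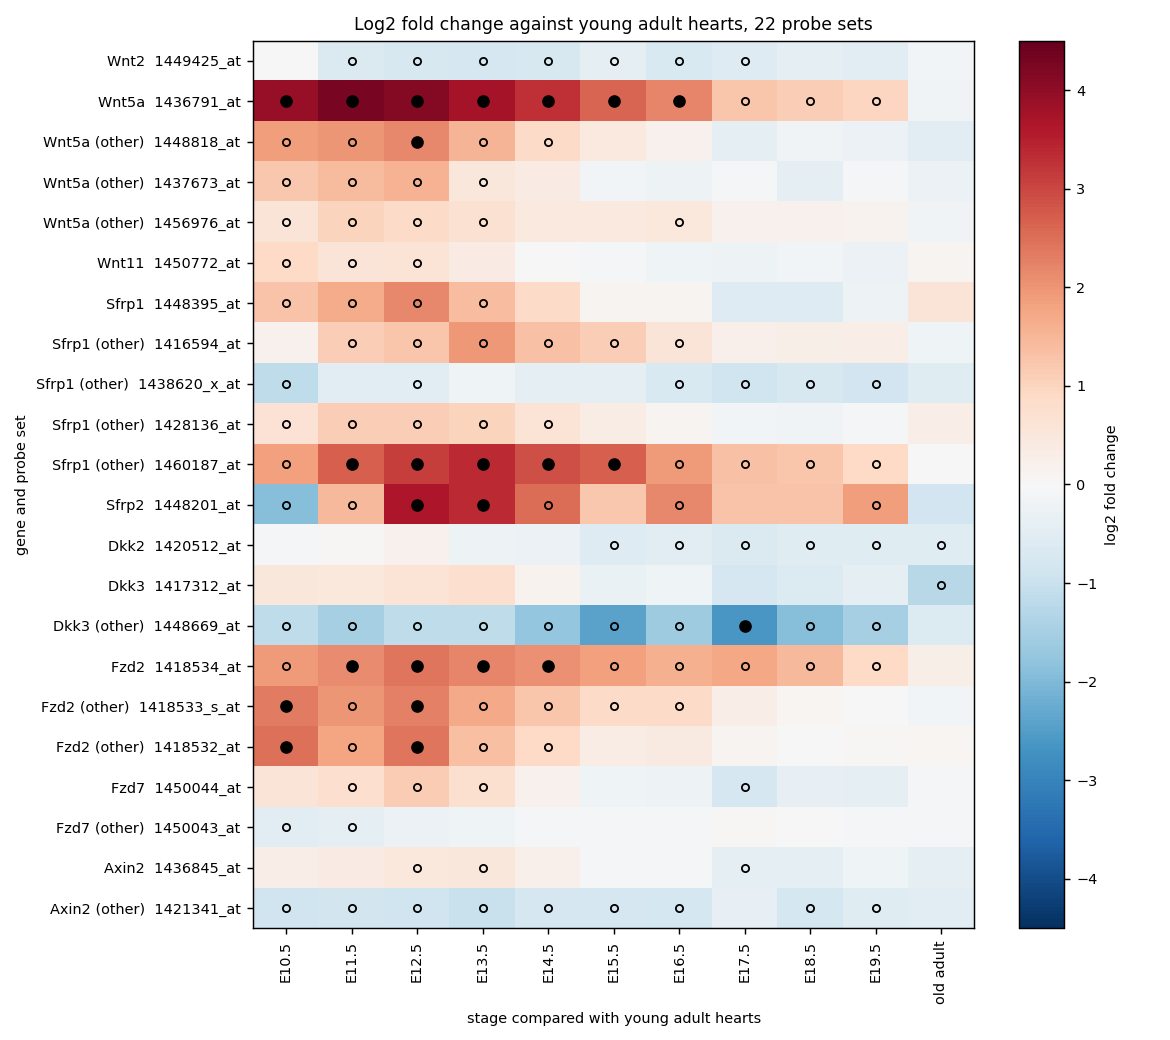
Log2 fold change of each stage against young adult hearts (columns) for the 22 probe sets (rows; "other" marks all but the brightest of a gene). Filled dots passed the limits of the study and open dots an adjusted p of 0.05 alone. *Wnt5a* is filled from E10.5 to E16.5, and the probe sets of *Sfrp1* and *Dkk3* differ in sign.

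The time courses most like each member were sought by Pearson's r over 12 stage means, as a description. *Sfrp1* was among the 3 nearest to *Fzd7* (r = 0.97), but *Fzd7* was not among the 3 nearest to *Sfrp1*. *Dkk3* and *Axin2* were each the nearest of the other (r = 0.97). All r here are of the brightest probe sets. The dimmer ones of *Fzd7*, *Dkk3* and *Axin2* had r of -0.80, 0.20 and -0.55 with the brightest, and those of *Sfrp1* 0.18 to 0.97. The nearest to *Wnt5a* were *Dgkk*, *Col13a1* and *Ptma* (0.99 each), and those nearest to *Fzd2* were *Irs1*, *Tmem132a* and *Zfp532* (0.99, 0.98 and 0.98). *Sfrp2* was followed less closely, by *Antxr1*, *Rbms3* and *Serinc2* (0.93 each). These stage means come from the same arrays, and the order of genes says nothing of shared function.

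Beside the members, 84 other genes of the pathway could be read, of which 52 reached a mean of 5 at some stage. At E10.5 against young adult, 9 were called higher and 1 lower (10.7% and 1.19%, against 5.14% and 2.64% of all genes), and the median of all 84 was -0.00, with members left out. The called receptors were *Ror2* (3.64), the WNT5A co-receptor, *Fzd3* (3.57) and *Ror1* (2.52). Receptor turnover and its enhancers gave the R-spondin *Rspo3* (3.29), its receptor *Lgr4* (2.75) and the ubiquitin ligase *Znrf3* (2.15). The others were the polarity genes *Celsr1* (2.88) and *Daam1* (2.15) and the nuclear effector *Lef1* (2.29), and the adjusted p of the 9 lay between 3.25e-14 and 8.86e-09.

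The single call in the lower direction was *Wif1*, a secreted Wnt inhibitor, at -5.90 as measured (SE 0.50, adjusted p = 1.40e-11), with an E10.5 mean far under 5. Its stage means were 1.93 at E10.5, 2.73 at E12.5 and 5.11 at E19.5. Young adult hearts had 7.83. None of the 17 other ligands and 12 cytoplasmic components was called at E10.5. Only 5 of these ligands and 10 of these components reached a mean of 5 at some stage, so the others could not be called. With an adjusted p of 0.05 alone, 9 of the ligands were lower and 1 higher. Of the cytoplasmic components 2 were lower and 7 higher, where 38.6% and 28.5% of all genes were. *Wls*, which carries Wnt proteins to the cell surface, was 2.68 higher with an adjusted p of 2.21e-05 and so missed the p limit of the study.

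At E19.5 only *Ror1* (2.93, adjusted p = 3.64e-10) and *Ror2* (2.23, adjusted p = 1.57e-08) of the 84 were still called. That was 2.38% called higher, where 1.02% of all genes were. *Ror1* had its highest stage mean at E16.5, 7.76, and *Ror2* stayed between 6.78 and 7.08 from E10.5 to E15.5 before falling to 5.37 at E19.5. The young adult mean was 3.14.

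**Figure D4:**
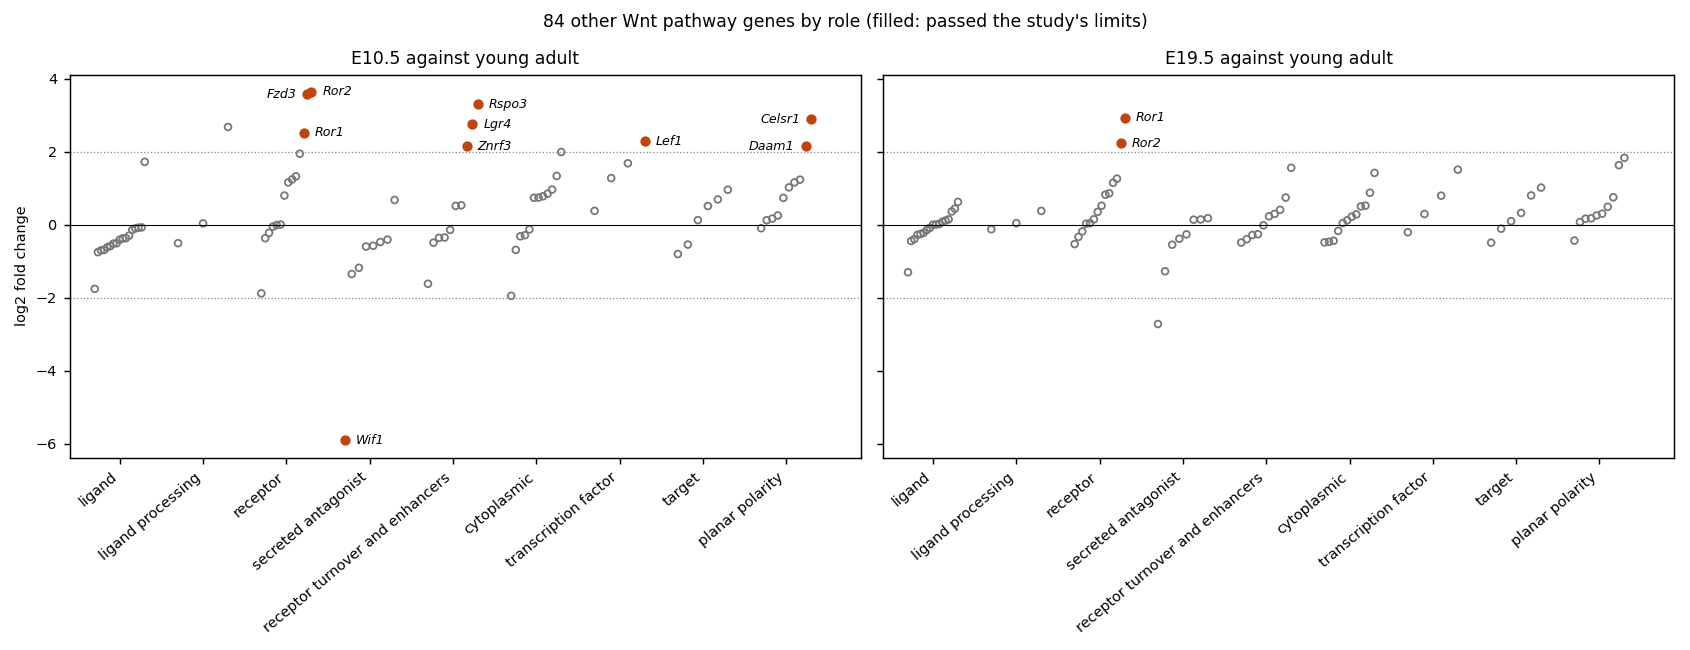
Log2 fold change of 84 other Wnt pathway genes (y axis) by role (x axis) at E10.5 and E19.5 against young adult hearts. Filled points passed the limits of the study, dotted lines mark 2 and -2. *Wif1* stands alone at -5.90 at E10.5, and *Ror1* and *Ror2* are the called genes at E19.5.

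At an adjusted p of 0.05, 2 of 10 members differed between old and young adult hearts, *Dkk2* and *Dkk3*, both lower in old hearts, where 7.59% of all genes differed. By the limits of the study 0 did in limma, and 3 had an unadjusted p under 0.05, a limit at which all genes were not counted. *Dkk3* read 7.78 (female), 5.97 (male) and 4.51 (mixed) in old hearts against 7.36, 7.54 and 7.14 in young ones. The groups overlapped, and the difference of -1.26 (SE 0.39) had an adjusted p of 0.0481. Without the old mixed array it was -0.47 (adjusted p = 0.392). The other *Dkk3* probe set, 1448669_at, had means of 6.52 in old and 7.15 in young hearts and did not pass an adjusted p of 0.05.

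That old mixed array was also the lowest adult array for *Sfrp2* (2.84 against 5.67 female and 4.91 male) and *Fzd7* (4.23 against 5.78 and 5.35). Its fibroblast list mean was 8.70, compared with 9.70 to 10.4 in the other 5 adult arrays, and its erythroid list mean 5.26, compared with 3.61 to 3.98. The part of cell composition in these values was not tested. *Dkk2* differed by -0.54 (adjusted p = 0.0346) between means of 2.47 and 3.00, both dim. It lost this call in 4 of 41 alternative settings (limma adjusted p up to 0.162), among them quantile renormalization and the fit without the old mixed array. Without that array *Axin2* was the only member called.

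**Figure D5:**
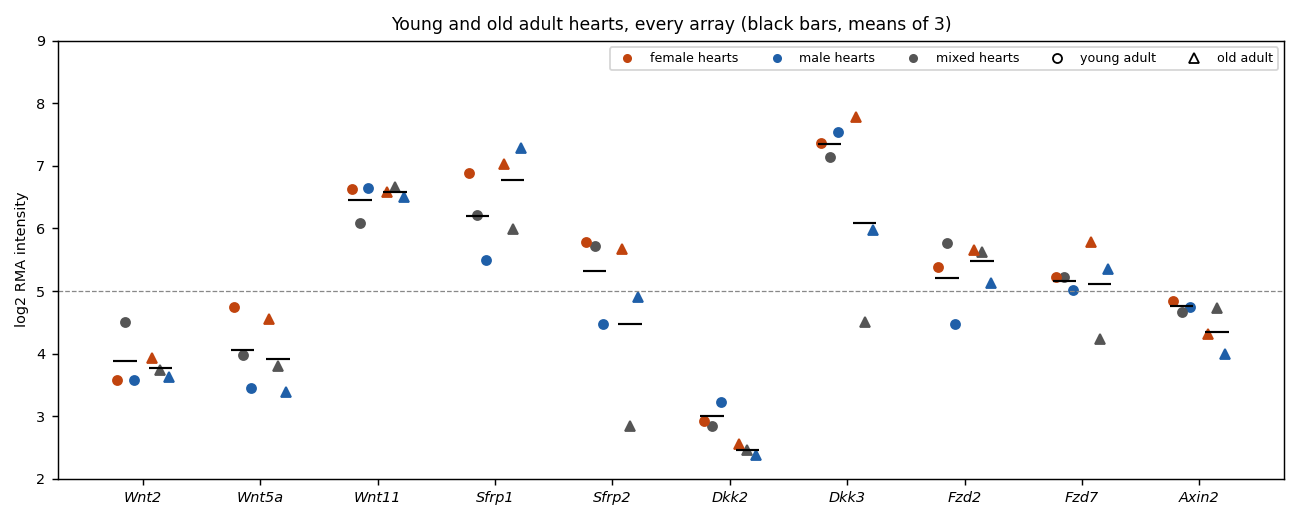
Log2 RMA intensity (y axis) of the 10 genes (x axis) in young adult (circles) and old adult (triangles) hearts. Each point is an array coloured by sex, black bars are means of 3 arrays and the dashed line marks 5. The old mixed array is the lowest point of *Dkk3* (4.51), *Sfrp2* (2.84) and *Fzd7* (4.23).

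Of the 84 other genes, 8 (9.52%) differed between old and young adults at that limit, where 7.59% of all genes did. *Wif1* (-1.58), *Lrp6* (-0.83), *Sost* (-0.76) and *Wnt6* (-0.75) were lower in old hearts, and *Myc* (0.97), *Prickle2* (0.71), *Daam1* (0.66) and *Apc* (0.60) were higher, with adjusted p between 0.00403 and 0.0494.

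Male and female hearts were compared over 9 stages from E13.5 with stage as a block. No member differed at an adjusted p of 0.05 in limma, where 0.0435% of all genes did. At an unadjusted p under 0.05, 3 of 10 did with the brightest probe sets, all lower in males. The share of all genes at that unadjusted limit was not counted, so nothing is read from this number. *Sfrp2* was lower by 0.48 (SE 0.14, limma adjusted p = 0.478) and lower in 8 of 9 pairs. *Wnt5a* was lower by 0.40 in 6 of 9 pairs and *Fzd7* by 0.27 in 7 of 9, with adjusted p of 0.555 and 0.549. The other probe sets of *Wnt5a* were lower by only 0.06 to 0.10, and the second of *Fzd7* by 0.08. Their limma adjusted p lay between 0.843 and 0.910.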

How the data were processed

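The 36 heart RNA samples were measured on Affymetrix GeneChip arrays. The deposited values are log2 intensities after robust multi-array average (RMA) by the authors, and the submitters' notes name Expression Console and Partek 6.6. RMA is meant to bring all arrays to one distribution, which can remove a shift of most genes. The deposited values did not fully share one, since quantile renormalization changed them. For *Wnt11* at E10.5 against young adult it moved the difference from 0.90 to 0.38. Signal over background limits dim probe sets, and counts of molecules are unknown. Groups are the 12 stages of the labels.

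One limma model (3.58.1, R 4.3.3) with 12 stage means was fitted to all 45101 probe sets, with Benjamini-Hochberg adjustment over all of them and the filter on a mean of 5 applied afterwards. Sex was tested on 18 arrays in 9 pairs with stage as a block. Code was tested on simulated data. The member genes, the pathway list and the marker lists were chosen with earlier results of these data known. Marker lists named here are cardiomyocyte, fibroblast, cushion mesenchyme, epicardium, erythroid, liver, thymus, skeletal muscle, lung and adipocyte. Named genes are the members, every called pathway gene, and the 3 time courses nearest a member. Promoters are RefSeq GRCm38.p6. The methods call the 3 arrays of a stage biological replicates. Alternatives changed the scaling, filter, variance model, limits, probe set, block, title term and arrays.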

Additional observations from a re-analysis of the deposited data

How the results depend on the processing

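Counts of member genes are meant unless the pathway is named. Quantile renormalization, filtering before the model, the robust trend model and the title form as a term each left 1 gene for old against young adult, where 2 were called, and the limits of the study or both stages alone left 0. Centring left 3 genes and the title term 2 for variation over embryonic stages, where 6 were called, and the title term left 0 for E10.5 against E19.5, where 2 were. Counting any probe set gave 2 genes for E10.5 against young adult (1 called), 5 for any stage (3 called) and 4 daily steps (1 called). A log2 limit of 1 gave 2 genes at E10.5 and, for the pathway, 21 at E10.5 (10 called) and 7 at E19.5 (2 called). The sex label as replicate block gave 2 daily steps. Arrays of one sex label deviated together with a median correlation of 0.17, against -0.08 for other labels, over 2000 probe sets, but the label names a sex and not a shared animal. The causes were not tested.

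Leaving out each array in turn gave 1 to 2 genes for E10.5 against young adult, 0 to 0 for E19.5, 2 to 4 for any stage, 1 to 2 for E10.5 against E19.5, 4 to 7 for embryonic variation, 1 to 3 steps, 0 to 2 for old adults, 0 to 0 for sex, and 10 to 12 and 1 to 3 pathway genes at E10.5 and E19.5. E10.5 against young adult gave 2 without young adult replicate 2 or 3, E10.5 against E19.5 gave 1 without E19.5 replicate 1 or 2, steps gave 3 without young adult replicate 1, and old adults gave 0 without young adult or old adult replicate 1. Of 30 single-gene results 0 changed sign. *Wnt5a* at E10.5 against young adult ranged from 3.40 to 4.27 and *Sfrp2* at E12.5 from 3.19 to 4.26, each past an adjusted p of 0.05 in all 42 settings, although *Sfrp2* missed 1e-05 with the title term and without young adult replicate 1, whereas *Dkk3* in old adults (-2.10 to -0.47) lost its call in 32 of 42.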
